A study of Homo sapiens with 6 samples.

Results

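The 38 genes described here encode proteins that drive cells into mitosis, hold chromosomes at the spindle checkpoint, build the spindle and divide the cell. They were taken by symbol from a deposited table of transcript abundances, in which each transcript was counted once and summed to its gene symbol. All 38 were among the 27852 symbols of the table, and all 38 passed the filter on low counts that left 13236 genes for testing. Polyadenylated RNA was sequenced from 3 established lines of human oral squamous carcinoma (HSC3, HSC4 and SAS) after culture in 2 media. HPLM is a culture medium made up to resemble the small molecules of human plasma, and DMEM is a standard culture medium with nutrient levels unlike those of blood. The HPLM group held HSC3, HSC4 and SAS in HPLM (3 libraries), and the DMEM group held the same lines in DMEM (3 libraries). Heat-inactivated fetal bovine serum and an antibiotic and antimycotic mix were added to both media. With 1 library for a line in a medium, a difference within a line has no replicate check. Between media, the lines serve as the replicates, and a p-value sets the response against its spread over 3 lines. Between lines, the 2 libraries of a line differ in medium and are not replicates. There a p-value sets the difference against the spread of line differences between media.

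Mitosis begins when the kinase CDK1, bound to cyclin A or B and freed of its inhibitory phosphates by CDC25 phosphatases, is switched on. The spindle checkpoint then delays anaphase until each kinetochore, the protein structure on a centromere, is attached to microtubules, by holding back CDC20, the activator of the anaphase-promoting complex. Most of these genes are transcribed late in the cell cycle under the MuvB complex, joined by B-MYB and FOXM1 in dividing cells and by repressive partners in the DREAM complex in resting cells, so their summed RNA is widely read as a proliferation signature. In RNA from whole cultures, fewer cells in mitosis and less of each RNA per cell cannot be told apart.

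Promoter sequence is shown because late cell-cycle promoters are known for a shared layout, CCAAT boxes bound by NF-Y and a short element named CHR that recruits MuvB. The RefSeq table (GRCh38.p14) matched 31 of the 38 symbols. The symbols AURKA, BIRC5, BUB3, FOXM1, TPX2, TTK and UBE2C had no match. Each window ran from 250 bases before to 50 bases after a start of the gene, and both strands were searched for exact letters. A symbol could have several windows (35116 windows for 27305 symbols) and was counted if any of them held the letters. CCAAT was in 25 of the 31 symbols (80.65%), against 39.72% of all 27305 symbols. TTTGAA or TTCGAA, the letters most often given for the CHR, was in 24 of 31 (77.42%), against 19.54% of all symbols. Both were in the same window for 20 of 31 (64.52%), against 7.848% of all symbols. The E2F letters TTTCGCGC were in 1 of 31 (3.226%, against 0.6299%), and the forkhead letters TGTTTAC or TGTTTGC in 2 of 31 (6.452%, against 8.683%). TTCGAA reads the same on both strands, and none of the other motifs contains another. A match is a string of letters and no measured binding. The 250 bases before 1 start of each of 6 members that hold both elements follow, 5′ to 3′ on the strand of the gene. CCAAT (or its complement ATTGG) and TTTGAA or TTCGAA (or the complement TTCAAA) are in capitals.
CDC20, chr1:43358731-43358980, plus strand: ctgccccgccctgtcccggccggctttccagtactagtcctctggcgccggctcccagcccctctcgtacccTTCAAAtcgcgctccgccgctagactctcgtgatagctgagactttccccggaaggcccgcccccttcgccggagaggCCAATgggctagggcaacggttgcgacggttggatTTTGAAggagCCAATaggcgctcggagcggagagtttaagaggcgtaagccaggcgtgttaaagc
CDK1, chr10:60778081-60778330, plus strand: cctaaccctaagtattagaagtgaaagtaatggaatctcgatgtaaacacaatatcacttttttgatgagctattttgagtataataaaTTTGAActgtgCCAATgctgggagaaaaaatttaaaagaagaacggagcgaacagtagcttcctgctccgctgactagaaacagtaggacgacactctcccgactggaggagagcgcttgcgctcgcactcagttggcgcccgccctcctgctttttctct
TOP2A, chr17:40417897-40418146, minus strand: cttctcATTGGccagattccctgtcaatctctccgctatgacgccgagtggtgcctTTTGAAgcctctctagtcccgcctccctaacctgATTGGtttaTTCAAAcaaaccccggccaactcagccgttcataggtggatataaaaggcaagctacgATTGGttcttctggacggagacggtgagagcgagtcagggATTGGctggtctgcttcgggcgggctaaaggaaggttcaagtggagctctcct
NUSAP1, chr15:41332631-41332880, plus strand: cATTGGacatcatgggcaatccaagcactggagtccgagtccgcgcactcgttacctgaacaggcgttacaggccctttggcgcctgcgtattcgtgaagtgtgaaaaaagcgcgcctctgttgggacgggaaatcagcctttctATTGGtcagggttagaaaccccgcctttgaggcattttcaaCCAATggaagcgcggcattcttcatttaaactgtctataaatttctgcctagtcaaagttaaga
CDC25B, chr20:3796060-3796309, plus strand: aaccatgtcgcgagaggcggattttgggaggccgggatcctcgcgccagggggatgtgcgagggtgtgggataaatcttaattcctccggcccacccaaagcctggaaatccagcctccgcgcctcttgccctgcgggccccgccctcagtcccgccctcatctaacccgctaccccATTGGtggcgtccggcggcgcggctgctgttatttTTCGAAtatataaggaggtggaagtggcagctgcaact
MKI67, chr10:128126424-128126673, minus strand: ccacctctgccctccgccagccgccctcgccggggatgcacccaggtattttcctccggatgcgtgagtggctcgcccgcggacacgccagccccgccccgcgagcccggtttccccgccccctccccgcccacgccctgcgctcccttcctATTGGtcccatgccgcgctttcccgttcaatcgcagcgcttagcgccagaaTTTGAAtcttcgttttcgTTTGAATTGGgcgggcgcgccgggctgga
The element nearest to a start differed in kind. In CDC25B, TTCGAA began 38 bases before the start and the only CCAAT 73 bases before it. In CDC20, TTTGAA and CCAAT began 65 and 55 bases before the start, and in CDK1 they began 161 and 150 bases before it. TOP2A held 4 CCAAT letters, at 244, 160, 93 and 53 bases before its start. In NUSAP1 the TTTGAA began 14 bases after the start and is not printed. In MKI67 the TTTGAA at 29 bases shares its last letter with an ATTGG at 24 bases.

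Estimated counts summed to between 17716006 and 20171713 per library. All 10 markers of squamous epithelium were detected at 1 CPM, the count scaled to a fixed library size, or more, with a sum of 5494, 3048 and 1916 CPM in HPLM in HSC3, HSC4 and SAS, against 6402, 3154 and 2599 CPM in DMEM, although KRT14 was at 10.8 CPM in HPLM and 4.40 CPM in DMEM in HSC4. Markers of other cells were low. The 7 fibroblast markers summed to at most 6.52 CPM (COL3A1 listed at 0 in all 6 libraries), the 4 endothelial markers to at most 2.49 CPM (KDR listed at 0 in all 6), and PTPRC, the pan-leukocyte marker, reached at most 2.30 CPM. The 6 leukocyte markers summed to between 3.97 and 92.9 CPM, of which CD74 made up 87.5 CPM in HPLM and 69.5 CPM in DMEM in HSC3. The values here are already corrected for transcript length, so CPM can be compared between genes.

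The first comparison asked whether the mitotic genes differed between HPLM and DMEM over the 3 lines. None of the 38 passed an adjusted p under 0.05 in edgeR's quasi-likelihood test with the line as a block, where 0.00756% of all tested genes passed as higher and 0% as lower. DESeq2, limma-voom and limma-trend also called 0 of the 38, and called 127, 9 and 0 of all 13236 tested genes. With so few calls in each test, 0 of 38 does not set the members apart. At an unadjusted p under 0.05, 4 of the 38 (10.5%) passed, against 10.1% of all tested genes, so the share was near the background. PTTG1 was the 1 with a positive fold change, and PRC1, BUB1 and FOXM1 were the 3 with negative ones. The fitted log2 fold changes, HPLM over DMEM, ran from −0.34 to 0.34 with a median of −0.02, against 0.00 over all genes. Of the 38, 14 were positive (background 50.1%) and 24 negative (background 49.9%). Their standard errors lay between 0.0857 and 0.201 and their adjusted p between 0.401 and 0.999. In none of the 38 did the 3 HPLM libraries lie wholly above or below the 3 DMEM libraries, which held for 2.64% of all tested genes.

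The median near 0 covered opposite values in different lines. In HSC3, 33 of the 38 were higher in HPLM than in DMEM (background 50.2%) and 5 lower (background 49.5%), with a median log2 ratio of 0.22. In HSC4, 34 of the 38 were lower in HPLM (background 49.7%) and 4 higher (background 50.1%), with a median of −0.26. In SAS, 15 were higher (background 49.3%) and 23 lower (background 50.7%), with a median of −0.06. The median over all tested genes was 0.00 in each line. Higher in HSC3 and lower in HSC4 were 29 of the 38 (76.3%), against 22% of all tested genes, and 17 of these were also lower in SAS (44.7%, against 10.7%). Only 2 were higher in HPLM in all 3 lines (5.26%, against 16.9%), MAD2L1 and BIRC5, and 4 were lower in all 3 (10.5%, against 17.2%), FOXM1, BUB1, BUB1B and PRC1. These signs are of all transcripts of a gene summed, and most of the MAD2L1 value lay on transcripts not annotated as protein-coding. The ratio in HSC3 minus that in HSC4 ran from −0.28 to 0.99 over the 38, with a median of 0.47. With 1 library per line and medium no residual is left for a test of line by medium, so this difference between lines was not tested. Under upper-quartile scaling and RLE scaling the count in opposite directions was also 29, with no scaling factor it was 31, and with protein-coding transcripts alone, an alternative chosen after seeing the data, it was 26. The SAS signs depended more on scaling. With no scaling factor 7 members were higher in HPLM in SAS and 31 lower, with a median of −0.14, when the all-gene median there was −0.08.

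**Figure D1:**
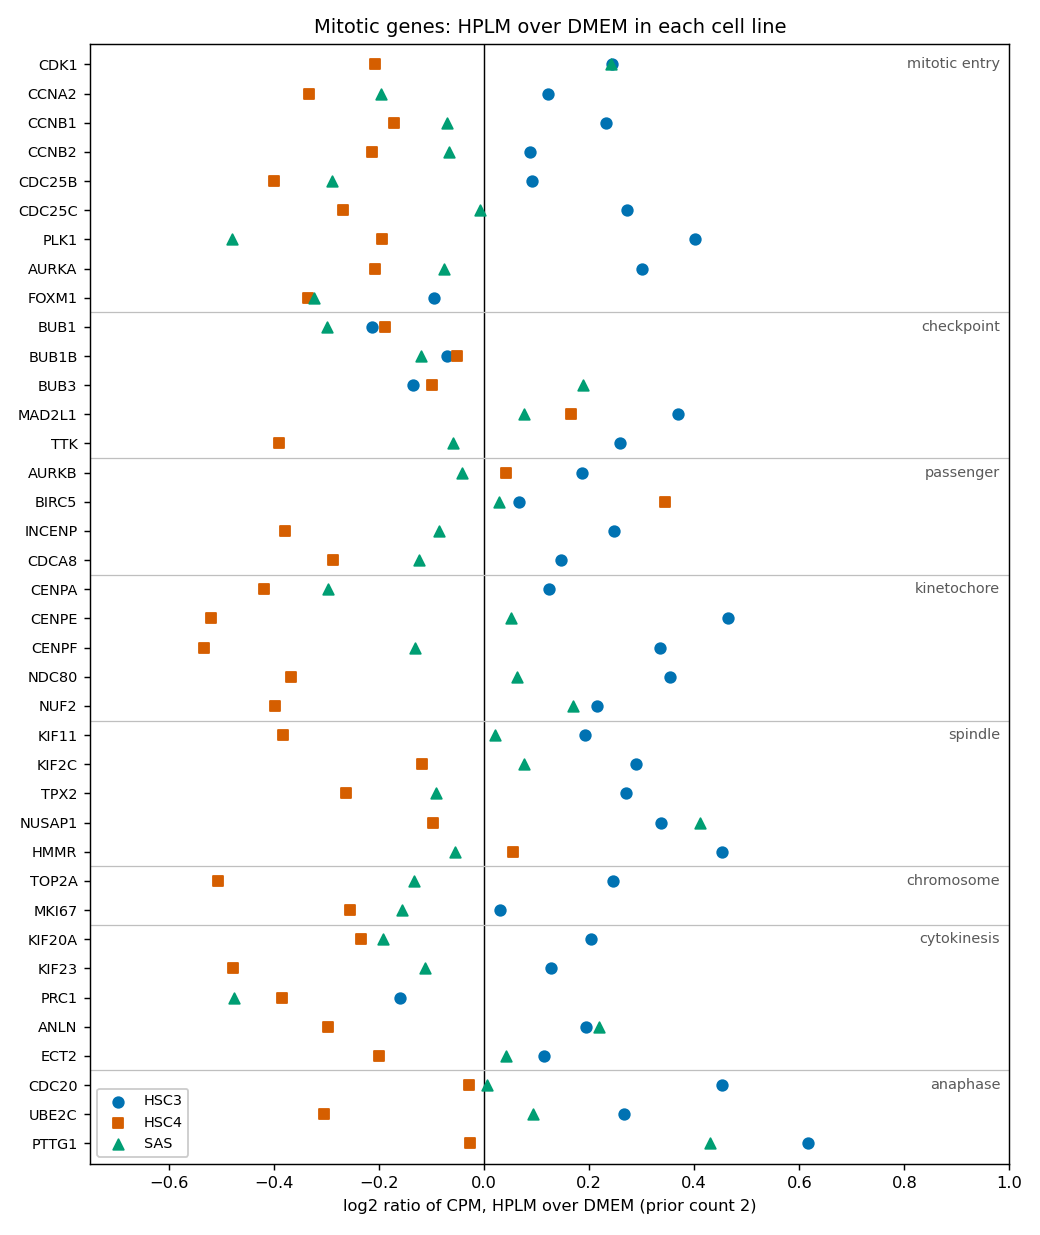
Log2 ratio of CPM, HPLM over DMEM, for each of the 38 mitotic genes (rows, grouped by role) in HSC3 (circles), HSC4 (squares) and SAS (triangles), with 1 library per line and medium. The HSC3 points lie to the right of 0 for 33 genes and the HSC4 points to the left of 0 for 34 genes, while the SAS points fall on both sides.

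Summed over the 38, the mitotic RNA came to 4979, 4417 and 4896 CPM in HPLM in HSC3, HSC4 and SAS, against 4226, 5104 and 4831 CPM in DMEM. The HSC3 sum was thus the higher in HPLM, the HSC4 sum the higher in DMEM, and the SAS sums were close. As a share of a library's estimated counts the 38 made up 0.481% in HPLM and 0.41% in DMEM in HSC3, 0.461% in HPLM and 0.556% in DMEM in HSC4, and 0.459% in HPLM and 0.478% in DMEM in SAS. In SAS the CPM sum was thus the higher in HPLM and the share the higher in DMEM. The lowest member by mean CPM was CDC25C (11.9) and the highest PTTG1 (434.9), with a median of 93.0 CPM over members, against 16.1 CPM over all tested genes.

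The genes of mitotic entry were 9, and 8 of them were higher in HPLM in HSC3 and lower in HPLM in HSC4. CDK1 had 244, 149.7 and 185 CPM in HPLM in HSC3, HSC4 and SAS, against 206, 173 and 157 CPM in DMEM. The kinase gene was higher in HPLM in HSC3 and SAS and lower in HSC4, and its log2 fold change was 0.09 ± 0.12 (SE; adjusted p = 0.831, edgeR). CCNB1 encodes the mitotic cyclin that carries CDK1 into prophase. CCNB1 stood at 255, 183 and 311 CPM in HPLM in HSC3, HSC4 and SAS, against 217, 206 and 327 CPM in DMEM. HSC3 was the 1 line in which it was higher in HPLM, and the fitted change was −0.0039 ± 0.11 (SE; adjusted p = 0.996, edgeR). CCNA2 encodes a cyclin of S phase and early mitosis. CCNA2 had 94.6, 46 and 72.7 CPM in HPLM in HSC3, HSC4 and SAS, against 87, 58 and 83.3 CPM in DMEM. Its log2 ratios were 0.12 (HSC3), −0.33 (HSC4) and −0.20 (SAS), and those of CCNB2, a second B-type cyclin gene, were 0.09 (HSC3), −0.21 (HSC4) and −0.07 (SAS). PLK1 encodes the polo-like kinase of centrosome maturation and mitotic entry. PLK1 was at 112, 74.5 and 97.6 CPM in HPLM in HSC3, HSC4 and SAS, against 84.8, 85.3 and 136 CPM in DMEM. It had the lowest ratio of any member in SAS (−0.48) beside a ratio of 0.40 in HSC3, and the log2 fold change over lines was −0.09 ± 0.17 (SE; adjusted p = 0.895, edgeR).

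The phosphatase genes and the regulators of entry followed the same split except for FOXM1. CDC25B had 124, 119 and 62.4 CPM in HPLM in HSC3, HSC4 and SAS, against 116, 157 and 76.3 CPM in DMEM. Its log2 ratios were 0.09 (HSC3), −0.40 (HSC4) and −0.29 (SAS), with a log2 fold change of −0.20 ± 0.12 (SE; adjusted p = 0.620, edgeR). CDC25C had 13.5, 5.89 and 17 CPM in HPLM in HSC3, HSC4 and SAS, against 11.2, 7.12 and 17.1 CPM in DMEM. This phosphatase gene, the least abundant member, had a log2 fold change of 0.0081 ± 0.15 (SE; adjusted p = 0.994, edgeR). AURKA, which encodes the Aurora kinase of the spindle poles, had log2 ratios of 0.30 (HSC3), −0.21 (HSC4) and −0.08 (SAS). FOXM1 encodes a forkhead transcription factor that works with MuvB and B-MYB on late cell-cycle promoters. FOXM1 had 128, 129 and 141 CPM in HPLM in HSC3, HSC4 and SAS, against 136, 162 and 177 CPM in DMEM. It was lower in HPLM in all 3 lines, least in HSC3, and the log2 fold change was −0.25 ± 0.09 (SE; adjusted p = 0.459, edgeR) at an unadjusted p of 0.0345.

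Of the 5 spindle checkpoint genes 1, TTK, was higher in HPLM in HSC3 and lower in HSC4, a pattern of 22% of all tested genes. BUB1 encodes a checkpoint kinase of the kinetochore. BUB1 had 56.5, 62.7 and 85.4 CPM in HPLM in HSC3, HSC4 and SAS, against 65.6, 71.4 and 105 CPM in DMEM. Each line was lower in HPLM, with a log2 fold change of −0.23 ± 0.09 (SE; adjusted p = 0.459, edgeR) at an unadjusted p of 0.034. BUB1B, the gene of the checkpoint protein BubR1, differed little between media. BUB1B had 39.2, 69.5 and 44.5 CPM in HPLM in HSC3, HSC4 and SAS, against 41.1, 72 and 48.4 CPM in DMEM. Each line was slightly lower in HPLM, and the log2 fold change was −0.08 ± 0.09 (SE; adjusted p = 0.797, edgeR). MAD2L1 encodes the protein Mad2, which binds CDC20 in the checkpoint complex. MAD2L1 had 71, 48 and 89.1 CPM in HPLM in HSC3, HSC4 and SAS, against 54.9, 42.9 and 84.6 CPM in DMEM. Summed over its transcripts, all 3 lines were higher in HPLM, HSC3 most, and the log2 fold change was 0.20 ± 0.10 (SE; adjusted p = 0.554, edgeR). On average 13.8% of this MAD2L1 value lay on protein-coding transcripts. In HSC4 that share was 11.7% in HPLM and 14.1% in DMEM, and the coding part there was lower in HPLM. BUB3, the partner of both Bub proteins, had log2 ratios of −0.14 (HSC3), −0.10 (HSC4) and 0.19 (SAS), and TTK, which encodes the checkpoint kinase Mps1, of 0.26 (HSC3), −0.39 (HSC4) and −0.06 (SAS).

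AURKB, INCENP, BIRC5 and CDCA8 encode the chromosomal passenger complex, in which Aurora B kinase corrects wrong attachments and is placed by INCENP, survivin and borealin. The 4 did not share signs. BIRC5 (survivin) had 124, 101 and 179.5 CPM in HPLM in HSC3, HSC4 and SAS, against 118, 79.2 and 176 CPM in DMEM. It was the member with the largest positive ratio in HSC4 (0.34), and its log2 fold change was 0.15 ± 0.10 (SE; adjusted p = 0.668, edgeR). AURKB had log2 ratios of 0.19 (HSC3), 0.04 (HSC4) and −0.04 (SAS). INCENP, at 0.25 (HSC3), −0.38 (HSC4) and −0.09 (SAS), and CDCA8, at 0.15 (HSC3), −0.29 (HSC4) and −0.12 (SAS), were higher in HPLM in HSC3 and lower in the other two lines.

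All 5 genes of the centromere and kinetochore were higher in HPLM in HSC3 and lower in HPLM in HSC4, with medians of 0.33 (HSC3), −0.42 (HSC4) and 0.05 (SAS). CENPF encodes a large kinetochore protein that accumulates in G2. CENPF was at 59.9, 36.3 and 50.5 CPM in HPLM in HSC3, HSC4 and SAS, against 47.5, 52.5 and 55.4 CPM in DMEM. Its HSC4 ratio of −0.53 was the lowest of any member in that line, beside 0.33 in HSC3. CENPE encodes the kinetochore motor that brings chromosomes to the spindle equator. CENPE had 16, 11.5 and 17.3 CPM in HPLM in HSC3, HSC4 and SAS, against 11.6, 16.5 and 16.7 CPM in DMEM. The ratios were 0.46 (HSC3), −0.52 (HSC4) and 0.05 (SAS), and the log2 fold change over lines was −0.0016 ± 0.20 (SE; adjusted p = 0.999, edgeR), the widest standard error of the 38. NDC80 and NUF2 encode partners in the complex that grips microtubules. NDC80 had 60.6, 49.5 and 40.9 CPM in HPLM in HSC3, HSC4 and SAS, against 47.4, 63.9 and 39.2 CPM in DMEM. The ratios of NUF2 were 0.22 (HSC3), −0.40 (HSC4) and 0.17 (SAS). Those of CENPA, the gene of the centromeric histone, were 0.12 (HSC3), −0.42 (HSC4) and −0.30 (SAS).

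Of the 5 spindle genes, 4 had this pattern. NUSAP1 encodes a microtubule bundling protein. NUSAP1 had 133, 163 and 175 CPM in HPLM in HSC3, HSC4 and SAS, against 105, 174 and 131 CPM in DMEM. It was higher in HPLM in HSC3 and SAS and close to level in HSC4, with a log2 fold change of 0.22 ± 0.12 (SE; adjusted p = 0.602, edgeR). HMMR encodes a hyaluronan-binding protein that also acts at spindle poles. HMMR stood at 52.7, 28.6 and 82.6 CPM in HPLM in HSC3, HSC4 and SAS, against 38.5, 27.6 and 85.9 CPM in DMEM. The HSC3 library in HPLM stood above its DMEM partner, the other two lines were near level, and the log2 fold change was 0.15 ± 0.13 (SE; adjusted p = 0.729, edgeR). Log2 ratios were 0.19 (HSC3), −0.38 (HSC4) and 0.02 (SAS) for KIF11, the motor that separates spindle poles, 0.29 (HSC3), −0.12 (HSC4) and 0.08 (SAS) for KIF2C, a microtubule depolymerase gene, and 0.27 (HSC3), −0.26 (HSC4) and −0.09 (SAS) for TPX2, which activates Aurora A on the spindle.

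TOP2A and MKI67, genes of chromosome structure, are both used as proliferation markers. TOP2A encodes the topoisomerase that untangles sister chromatids. TOP2A had 175, 102 and 149.8 CPM in HPLM in HSC3, HSC4 and SAS, against 148, 145 and 164 CPM in DMEM. It was higher in HPLM in HSC3 and lower in HSC4 and SAS, and the log2 fold change was −0.13 ± 0.15 (SE; adjusted p = 0.808, edgeR). MKI67, the gene of the Ki-67 antigen that coats mitotic chromosomes, differed less. MKI67 had 109, 109 and 88.4 CPM in HPLM in HSC3, HSC4 and SAS, against 107, 129.5 and 98.6 CPM in DMEM. The 2 HSC3 libraries were nearly equal, the other two lines were lower in HPLM, and the log2 fold change was −0.13 ± 0.10 (SE; adjusted p = 0.691, edgeR).

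The cytokinesis genes act at the central spindle and the cleavage furrow. PRC1, which encodes the bundler of antiparallel microtubules at the central spindle, had the lowest fold change of the 38. PRC1 had 62.9, 105 and 70.2 CPM in HPLM in HSC3, HSC4 and SAS, against 70.3, 138 and 97.7 CPM in DMEM. All 3 lines were lower in HPLM, SAS most, with a log2 fold change of −0.34 ± 0.10 (SE; adjusted p = 0.401, edgeR) at an unadjusted p of 0.0137. KIF23 had 55.1, 80.3 and 43.1 CPM in HPLM in HSC3, HSC4 and SAS, against 50.4, 112 and 46.6 CPM in DMEM. This centralspindlin motor gene had log2 ratios of 0.13 (HSC3), −0.48 (HSC4) and −0.11 (SAS), and its log2 fold change was −0.16 ± 0.13 (SE; adjusted p = 0.730, edgeR). The log2 ratios of KIF20A, a central spindle kinesin gene, were 0.20 (HSC3), −0.23 (HSC4) and −0.19 (SAS). Those of ANLN, which encodes the furrow scaffold anillin, were 0.19 (HSC3), −0.30 (HSC4) and 0.22 (SAS). Those of ECT2, the gene of the exchange factor that activates RhoA at the furrow, were 0.11 (HSC3), −0.20 (HSC4) and 0.04 (SAS).

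The 3 anaphase genes had the highest mean CPM of the 38. PTTG1 encodes securin, which holds separase inactive until the checkpoint is met. PTTG1 had 642, 295 and 547 CPM in HPLM in HSC3, HSC4 and SAS, against 419, 300.2 and 406 CPM in DMEM. HSC3 and SAS were higher in HPLM and HSC4 was near level, and the log2 fold change of 0.34 ± 0.14 (SE; adjusted p = 0.487, edgeR), at an unadjusted p of 0.0461, was the highest of the 38. CDC20 had 319, 312 and 333 CPM in HPLM in HSC3, HSC4 and SAS, against 233, 318 and 332 CPM in DMEM. The HSC3 library in DMEM was the low one among 6, the others lying between 312 and 333 CPM, and the log2 fold change was 0.14 ± 0.12 (SE; adjusted p = 0.727, edgeR). UBE2C encodes the ubiquitin-conjugating enzyme of the anaphase-promoting complex. UBE2C had 368, 474 and 320.0 CPM in HPLM in HSC3, HSC4 and SAS, against 306, 586 and 300.1 CPM in DMEM. It was lower in HPLM in HSC4 and higher in the other two lines, with a log2 fold change of 0.02 ± 0.13 (SE; adjusted p = 0.974, edgeR).

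**Figure D2:**
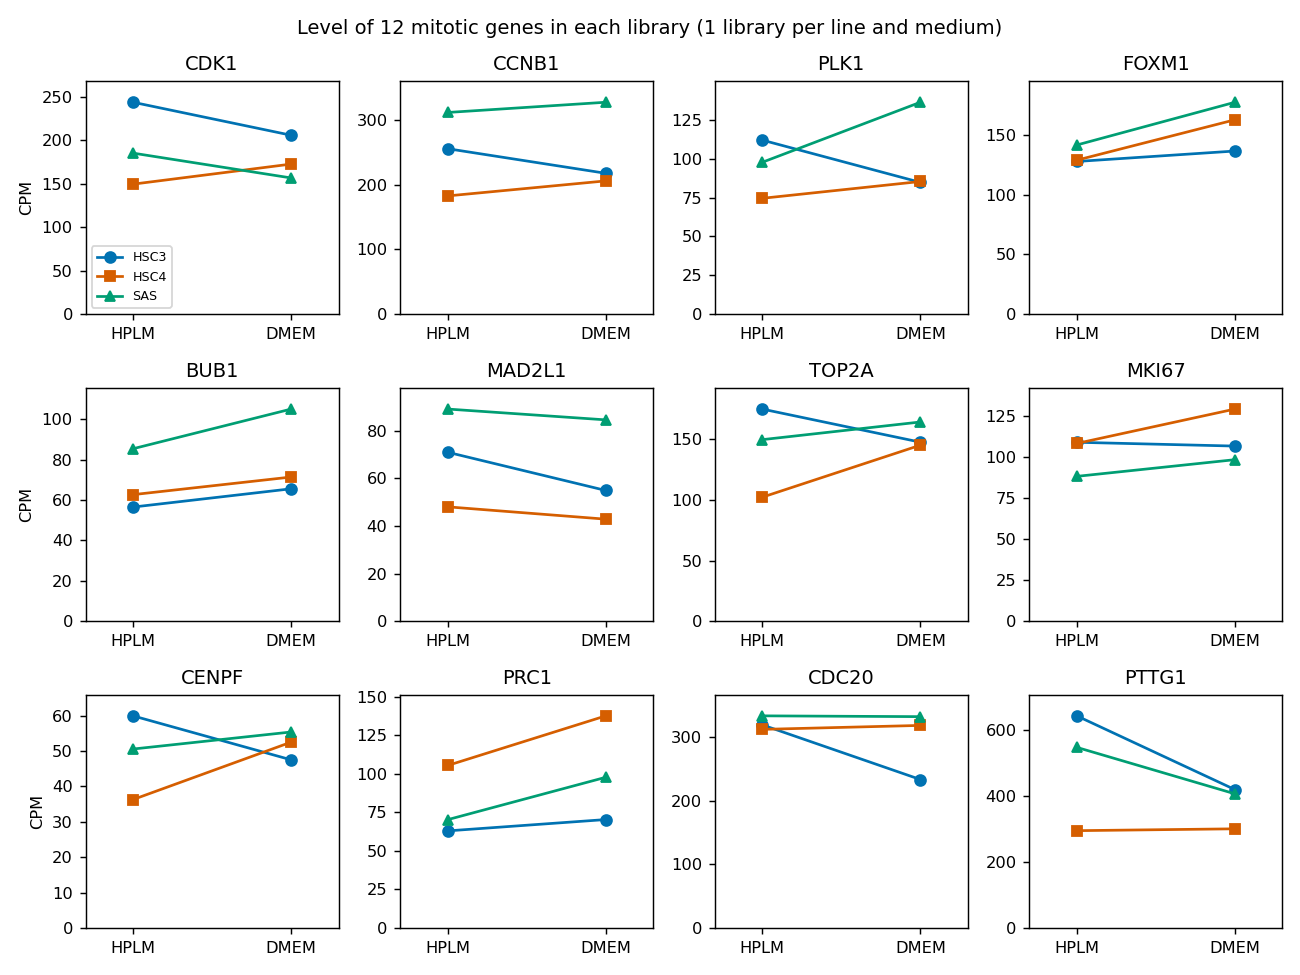
CPM of 12 mitotic genes in each of the 6 libraries, HPLM at the left and DMEM at the right of each panel, with a line joining the 2 libraries of HSC3 (circles), HSC4 (squares) and SAS (triangles), and no error bars since each point is 1 library. FOXM1, BUB1 and PRC1 are lower in HPLM in all 3 lines and MAD2L1 is higher in all 3. Lines cross in the panels of CDK1, PLK1, TOP2A, MKI67, CENPF and CDC20.

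Other genes of the cell cycle were read from 7 lists chosen with earlier results of these data known. None of their tested genes passed an adjusted p under 0.05 in edgeR. At an unadjusted p under 0.05, passed by 10.1% of all tested genes, there were 6 of 35 kinetochore and centromere genes, 4 of 17 anaphase-promoting complex genes, 3 of 41 G1 and S phase genes, 3 of 6 CDK inhibitor genes, 2 of 14 DREAM and MuvB genes, 1 of 18 condensin and cohesin genes and 0 of 35 other spindle genes. The split between HSC3 and HSC4 (background 22%) was frequent in other mitotic genes. Of 35 other genes of mitotic kinesins, kinases and spindle, 30 were higher in HPLM in HSC3 and 30 lower in HPLM in HSC4 (medians 0.18 and −0.25), and 26 were both, while the SAS median was −0.02. Of 35 other kinetochore and centromere genes, 28 were higher in HSC3 and 28 lower in HSC4 (medians 0.13 and −0.24), 23 were both, and the SAS median was −0.02. Among 18 condensin and cohesin genes, 8 were higher in HSC3 and lower in HSC4, with medians of 0.02 (HSC3), −0.14 (HSC4) and −0.07 (SAS).

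The other 4 lists held genes of G1 and S phase, of the anaphase-promoting complex, of DREAM and MuvB, and of CDK inhibitors. Of 41 tested G1 and S phase genes, 28 were lower in HPLM in HSC3 (median −0.07) and 25 lower in HSC4 (median −0.05), and 9 had the split. The 17 anaphase-promoting complex genes had medians of 0.07 (HSC3), 0.02 (HSC4) and 0.03 (SAS), and 6 had the split. The 14 DREAM and MuvB genes had medians of 0.06 (HSC3), 0.00 (HSC4) and −0.08 (SAS), and 4 had the split. The 6 tested CDK inhibitor genes had a median of −0.27 (HSC3), −0.27 (HSC4) and −0.02 (SAS), and 1 had the split. CDKN1C was too low to test, and UHRF1 was not analysed here.

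**Figure D3:**
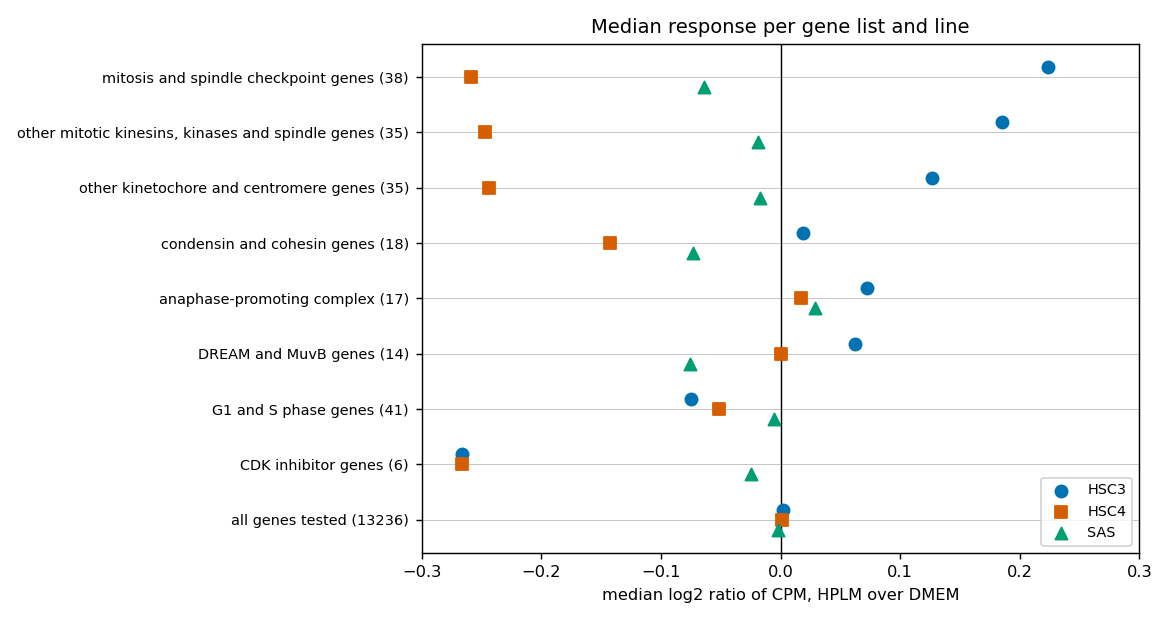
Median log2 ratio of CPM, HPLM over DMEM, per gene list (rows, with the number of tested genes) in HSC3 (circles), HSC4 (squares) and SAS (triangles), 1 library per line and medium, with the 3 symbols of a row set slightly apart in height. The 3 mitotic lists at the top have HSC3 medians of 0.13 to 0.22 and HSC4 medians of −0.26 to −0.24, and the all-gene medians at the bottom lie at 0.00.

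The related genes with the smallest unadjusted p per list each had 1 sign in the 3 lines, all short of the threshold. MYBL2 had 148, 203 and 94.8 CPM in HPLM in HSC3, HSC4 and SAS, against 107, 177 and 73.5 CPM in DMEM. MYBL2, the gene of B-MYB, was higher in HPLM in each line, with a log2 fold change of 0.34 ± 0.09 (SE; adjusted p = 0.383, edgeR), and LIN54, which encodes the DNA-binding subunit of MuvB, had −0.43 ± 0.14 (SE; adjusted p = 0.428, edgeR). CDKN2A had 42.9, 21.8 and 38.7 CPM in HPLM in HSC3, HSC4 and SAS, against 68.4, 23.6 and 61.9 CPM in DMEM. CDKN2A, which encodes the CDK4 and CDK6 inhibitor p16, was lower in HPLM in each line, with −0.50 ± 0.14 (SE; adjusted p = 0.390, edgeR), and its neighbour CDKN2B had −0.58 ± 0.16 (SE; adjusted p = 0.394, edgeR). CCND2 had 87.3, 30.3 and 30.1 CPM in HPLM in HSC3, HSC4 and SAS, against 44.4, 21.7 and 9.85 CPM in DMEM. CCND2, a D-type cyclin gene, had 1.00 ± 0.21 (SE; adjusted p = 0.362, edgeR), and its relative CCND1 −0.33 ± 0.09 (SE; adjusted p = 0.381, edgeR).

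Among mitotic genes outside the 38, CENPH, a gene of the inner kinetochore, had 0.38 ± 0.09 (SE; adjusted p = 0.371, edgeR) and MAD1L1, which encodes the kinetochore anchor of Mad2, had −0.33 ± 0.09 (SE; adjusted p = 0.389, edgeR). Over all transcripts summed, the signs of MAD1L1 and MAD2L1 were thus opposite in all 3 lines. For the protein-coding transcripts of MAD2L1 this did not hold in HSC4. ANAPC11, the catalytic RING subunit gene of the anaphase-promoting complex, had 0.34 ± 0.09 (SE; adjusted p = 0.374, edgeR), and ANAPC2, the gene of its cullin partner, had −0.38 ± 0.10 (SE; adjusted p = 0.381, edgeR). CKS1B, which encodes a CDK-binding adaptor, had 0.24 ± 0.10 (SE; adjusted p = 0.497, edgeR), and the kinesin gene KIF18B had −0.33 ± 0.15 (SE; adjusted p = 0.515, edgeR). The cohesin genes PDS5B and STAG1 had −0.33 ± 0.12 (SE; adjusted p = 0.448, edgeR) and −0.17 ± 0.10 (SE; adjusted p = 0.629, edgeR).

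The second comparison set the lines against each other in the same fit, with both libraries of a line. HSC3 against HSC4 gave 17 called members (44.7%, against 37.4% of all tested genes), 8 higher in HSC3 (background 18.6%) and 9 lower (background 18.8%). HSC3 against SAS gave 6 (15.8%, against 39.4%), 1 higher in HSC3 (background 20.6%) and 5 lower (background 18.8%). HSC4 against SAS gave 16 (42.1%, against 41.3%), 7 higher in HSC4 (background 21.3%) and 9 lower (background 20%). The share called was thus near the background wherever HSC4 entered and was below it between HSC3 and SAS. The median fold changes were −0.10 in HSC3 over HSC4, −0.16 in HSC3 over SAS and −0.08 in HSC4 over SAS, against 0.00, 0.01 and 0.01 over all tested genes. With no scaling factor, when the all-gene median was −0.13 in HSC3 against HSC4 and 0.16 in HSC4 against SAS, the calls were 4 higher and 10 lower in HSC3 against HSC4 and 10 higher and 5 lower in HSC4 against SAS. The counts changed with the libraries and settings used. Of the calls, 2 of 17 in HSC3 against HSC4 (BUB1B and PRC1), 1 of 6 in HSC3 against SAS (HMMR) and 6 of 16 in HSC4 against SAS (CDC25B, CDC25C, MAD2L1, BIRC5, HMMR and KIF23) were kept in each of 16 alternatives. Without 1 library of either line compared, fewer members were called in each contrast. Fewer calls were left over all tested genes as well, so the fall was not particular to the members.

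HMMR, MAD2L1 and BIRC5 passed in all 3 contrasts in edgeR as fitted, in the same order of lines, with SAS highest and HSC4 lowest. The share of all tested genes that passed in all 3 was not counted, so these passes do not set the members apart. HMMR was lower in HSC4 than in SAS, at a log2 fold change of −1.59 ± 0.16 (SE; adjusted p = 0.00134, edgeR), lower in HSC3 than in SAS, at −0.90 ± 0.15 (SE; adjusted p = 0.00686, edgeR) and higher in HSC3 than in HSC4 by 0.69 ± 0.16 (SE; adjusted p = 0.0182, edgeR). BIRC5 had −0.99 ± 0.12 (SE; adjusted p = 0.00257, edgeR) in HSC4 over SAS, −0.55 ± 0.12 (SE; adjusted p = 0.0157, edgeR) in HSC3 over SAS and 0.44 ± 0.12 (SE; adjusted p = 0.0359, edgeR) in HSC3 over HSC4. MAD2L1 had −0.94 ± 0.12 (SE; adjusted p = 0.00296, edgeR), −0.47 ± 0.12 (SE; adjusted p = 0.0255, edgeR) and 0.46 ± 0.12 (SE; adjusted p = 0.0295, edgeR) in the same contrasts. All 3 calls in HSC4 against SAS and HMMR in HSC3 against SAS were kept in each of the 16 alternatives. The others were not. With no scaling factor, and with line as the only term, MAD2L1 and BIRC5 lost HSC3 against HSC4. With protein-coding transcripts alone MAD2L1 lost both contrasts with HSC3, and with line as the only term it lost HSC3 against SAS. HMMR and MAD2L1 lost HSC3 against HSC4 without HSC3 in HPLM or either HSC4 library, and BIRC5 lost it without any library other than HSC4 in HPLM. MAD2L1 and BIRC5 lost HSC3 against SAS without any 1 library of those lines. For each of the 3 genes the 2 SAS libraries lay above the other 4 and the 2 HSC4 libraries below the other 4. Over the 38, both SAS libraries were above the other 4 for 8 members (background 21.3%) and both HSC4 libraries below the other 4 for 11 (background 20.2%). The HSC3 libraries were both above the other 4 for 3 members (AURKB, CCNA2 and CDK1; background 19.6%) and both below for 6 (background 18.9%).

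The cytokinesis genes KIF23, PRC1 and ANLN were called higher in HSC4 than in both other lines, as was the entry gene CCNB2. The entry genes CCNA2 and CDC25C were called lower there than in both. The share of all tested genes called against both other lines was not counted, so no trait of a role is read from these calls. KIF23 was higher in HSC4 than in SAS by 1.09 ± 0.16 (SE; adjusted p = 0.00460, edgeR) and lower in HSC3 than in HSC4, at −0.85 ± 0.16 (SE; adjusted p = 0.0109, edgeR). PRC1 had −0.85 ± 0.12 (SE; adjusted p = 0.00425, edgeR) in HSC3 over HSC4 and 0.54 ± 0.12 (SE; adjusted p = 0.0163, edgeR) in HSC4 over SAS. ECT2 was lower in HSC3 than in HSC4, and KIF20A was lower in HSC4 than in both other lines. UBE2C was higher in HSC4 than in SAS by 0.77 ± 0.15 (SE; adjusted p = 0.0110, edgeR). Among entry genes, CCNA2 was higher in HSC3 than in HSC4 by 0.81 ± 0.14 (SE; adjusted p = 0.00757, edgeR) and lower in HSC4 than in SAS, at −0.59 ± 0.14 (SE; adjusted p = 0.0200, edgeR). CDC25C had 0.92 ± 0.19 (SE; adjusted p = 0.0137, edgeR) in HSC3 over HSC4 and −1.38 ± 0.19 (SE; adjusted p = 0.00341, edgeR) in HSC4 over SAS. PTTG1 was higher in HSC3 than in HSC4 by 0.80 ± 0.17 (SE; adjusted p = 0.0143, edgeR). Many of these calls were lost without 1 library of the compared lines, a step that also left fewer calls over all tested genes. KIF23 in HSC4 against SAS, PRC1 in HSC3 against HSC4 and CDC25C in HSC4 against SAS were kept in all 16 alternatives. In HSC3 against HSC4, CDC25C, PTTG1 and KIF20A were lost without HSC3 or HSC4 in HPLM, CCNA2 without HSC4 in HPLM, and KIF23, ANLN and ECT2 without HSC3 or HSC4 in DMEM. ECT2 was also lost there without HSC3 in HPLM, and KIF20A without HSC4 in DMEM and with no scaling factor. In HSC4 against SAS, CCNA2, KIF20A and PRC1 were lost without any 1 library of those lines, ANLN without HSC4 or SAS in DMEM, and UBE2C without these or SAS in HPLM. CCNA2 and KIF20A were lost there with no scaling factor, and PRC1 with line as the only term. Both HSC4 libraries were above the other 4 for 9 members (background 20.9%), and both SAS libraries below the other 4 for 5 (background 21.8%).

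HSC4 had the lowest CCNB1 and the highest CCNB2 of the 3 lines. CCNB1 had −0.72 ± 0.13 (SE; adjusted p = 0.00806, edgeR) in HSC4 over SAS, −0.43 ± 0.13 (SE; adjusted p = 0.0423, edgeR) in HSC3 over SAS and 0.28 ± 0.13 (SE; adjusted p = 0.136, edgeR) in HSC3 over HSC4, which did not pass. CCNB2 had 0.38 ± 0.12 (SE; adjusted p = 0.0450, edgeR) in HSC4 over SAS and −0.71 ± 0.12 (SE; adjusted p = 0.00665, edgeR) in HSC3 over HSC4. For CCNB1, HSC4 against SAS was lost without HSC4 in HPLM or SAS in DMEM, and HSC3 against SAS with no scaling factor, with no low-count filter and without any 1 library other than HSC3 in HPLM. For CCNB2, HSC3 against HSC4 was lost without HSC3 in DMEM, and HSC4 against SAS with no low-count filter and without any 1 library other than HSC3 in DMEM. The 2 related checkpoint genes BUB1 and BUB1B also differed in their order of lines. BUB1 was highest in SAS, with −0.64 ± 0.11 (SE; adjusted p = 0.00602, edgeR) in HSC3 over SAS and −0.50 ± 0.10 (SE; adjusted p = 0.0127, edgeR) in HSC4 over SAS. The call in HSC3 against SAS was lost without SAS in DMEM, and that in HSC4 against SAS without any 1 library of HSC4 or SAS and with no scaling factor. BUB1B was highest in HSC4, with −0.82 ± 0.11 (SE; adjusted p = 0.00347, edgeR) in HSC3 over HSC4 and 0.61 ± 0.11 (SE; adjusted p = 0.00753, edgeR) in HSC4 over SAS, the second lost without SAS in HPLM. CDC25B was lowest in SAS, with 0.99 ± 0.15 (SE; adjusted p = 0.00435, edgeR) in HSC4 over SAS and 0.81 ± 0.15 (SE; adjusted p = 0.00846, edgeR) in HSC3 over SAS, of which the call in HSC3 against SAS was lost without SAS in HPLM. CDK1 was higher in HSC3 than in HSC4 by 0.47 ± 0.14 (SE; adjusted p = 0.0470, edgeR), a call lost with no scaling factor, with no low-count filter, with protein-coding transcripts alone and without any 1 library other than HSC4 in DMEM. In HSC3 over SAS CDK1 had 0.39 ± 0.14 (SE; adjusted p = 0.0759, edgeR), and it passed there in DESeq2 and without either HSC4 library.

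In edgeR as fitted, no contrast called 18 of the 38: PLK1, AURKA, FOXM1, BUB3, TTK, AURKB, INCENP, CENPA, CENPE, CENPF, NDC80, NUF2, KIF11, KIF2C, TPX2, TOP2A, MKI67 and CDC20. Of these, DESeq2 called TPX2 in HSC3 against HSC4 and INCENP and PLK1 in HSC4 against SAS, and limma-voom and limma-trend called INCENP and MKI67 in HSC4 against SAS. INCENP was also called there under upper-quartile and RLE scaling, with line as the only term and with protein-coding transcripts alone. With no scaling factor, INCENP, MKI67 and NDC80 were called there and TPX2 in HSC3 against HSC4. PLK1, TPX2, TOP2A, INCENP, NDC80 and NUF2 were each called in some contrast with 1 library left out, where a line keeps a lone library. The 18 include all 5 centromere and kinetochore genes, and their widest standard errors were those of CENPE, up to 0.247. The share of all tested genes that no contrast called was not counted, so the 18 do not set the members apart. A p that misses the threshold does not show that the lines were alike.

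**Figure D4:**
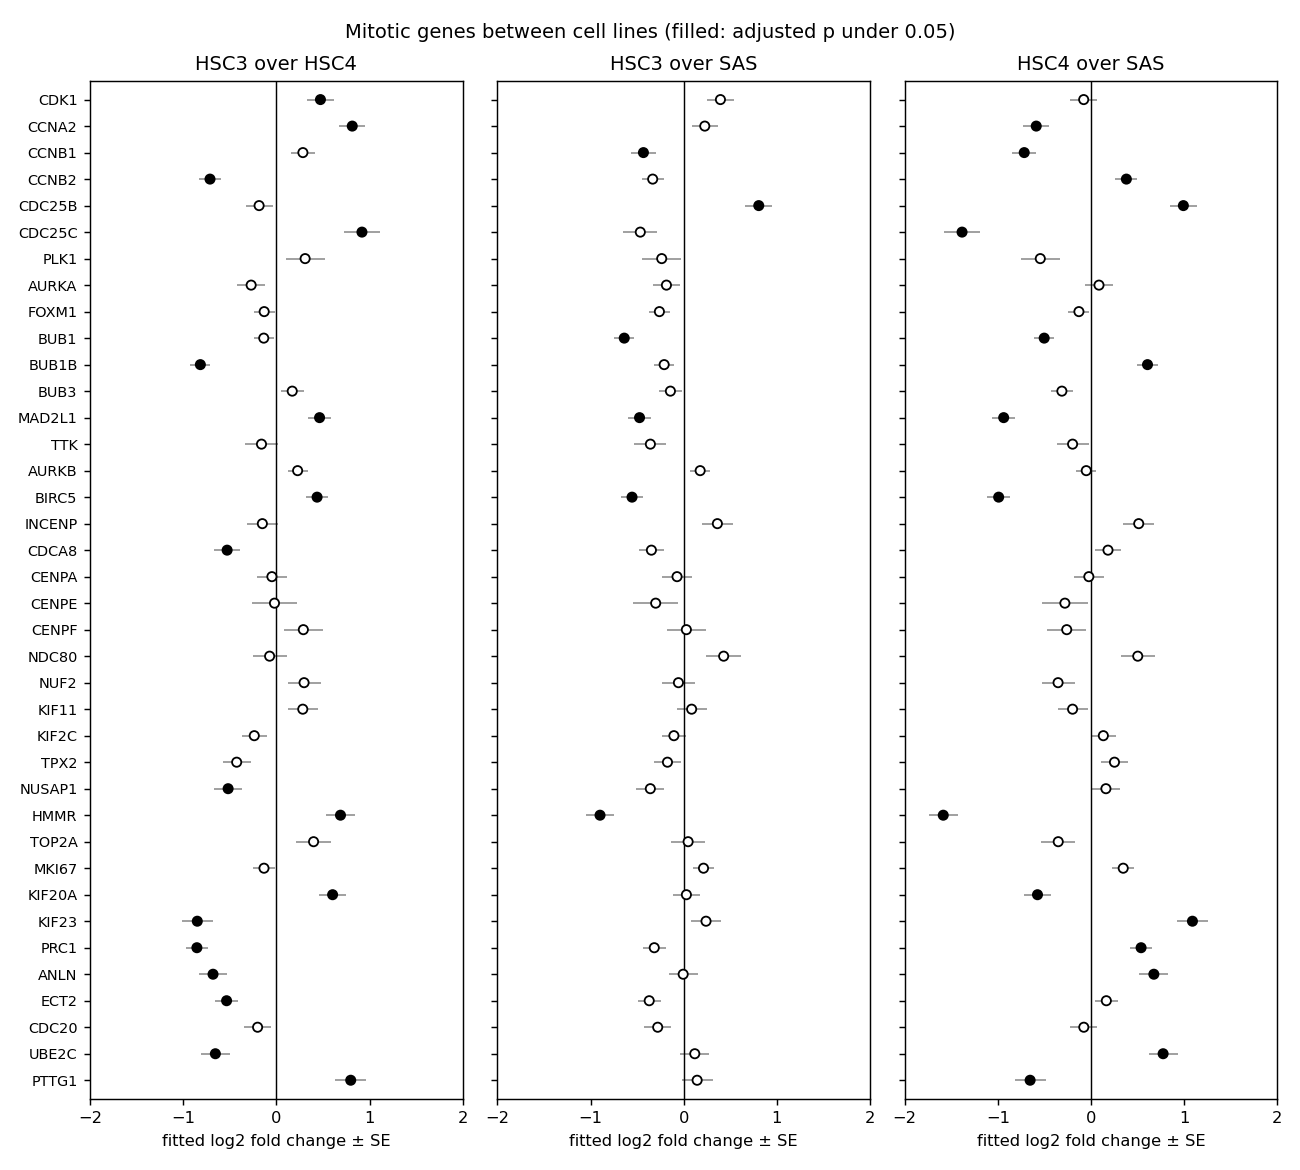
Fitted log2 fold change with its standard error for the 38 mitotic genes in HSC3 over HSC4, HSC3 over SAS and HSC4 over SAS, from 2 libraries per line. Filled points mark an adjusted p under 0.05 in edgeR, of which there are 17, 6 and 16 in the 3 panels, and HMMR in HSC4 over SAS lies farthest from 0 at −1.59.

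For MAD2L1 and INCENP less of the value lay on protein-coding transcripts (GENCODE 29) than off them, with coding shares of 13.8% for MAD2L1 and 49.4% for INCENP on average, against 60.7% for NUSAP1, 68.5% for BIRC5 and 74.4% or more for the others. The transcript MAD2L1-202, annotated as a target of nonsense-mediated decay, held 76.0% of the MAD2L1 value on average. INCENP-205, a processed transcript, held 42.4% of INCENP, and BIRC5-208, a decay target, held 30.1% of BIRC5. The share of FOXM1-202 in FOXM1 was 27.2%, 29.8% and 30.2% in HPLM in HSC3, HSC4 and SAS, against 37.9%, 36.1% and 34.9% in DMEM. That of PRC1-216 in PRC1 was 7.60%, 9.15% and 11.7% in HPLM, against 12.3%, 14.98% and 20.5% in DMEM. Both shares, named after their values were seen, were lower in HPLM in each of the 3 lines and were not tested. On opposite strands, exons of CCNA2, CDC25C, PLK1, FOXM1, MAD2L1, NUF2, KIF2C, HMMR, KIF20A, KIF23, PRC1 and ANLN overlap those of another gene. The libraries were strand-specific, but whether the counting used strand is not given in the sources used here, so reads of such pairs cannot be told apart. BUB1B, CENPA, NUSAP1 and PRC1 share exons on their own strand with BUB1B-PAK6, SLC35F6, AC087721.2 and AC068831.7, and their values are uncertain to that extent.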

How the data were processed

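Poly(A) RNA of 3 lines in HPLM and in DMEM was sequenced in 6 strand-specific libraries, per the labels' protocols. The submitters' processing notes name FastQC, kallisto and the build hg38. The sources used here give no tool version, annotation release or use of strand. The authors deposited expected counts per transcript, in a form the table calls scaled TPM: abundances scaled to library size, corrected for transcript length and not read numbers, so no counting interval is given. Column names give the line and, in HPLM alone, the medium. Those taken for DMEM name none.

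The table's 161149 rows held 159837 transcripts. The 1312 repeated rows (0.21% to 0.27% of a library) were counted once, and 6878 transcripts without a symbol (0.362% to 0.479%) were left out. The rest were summed to 27852 symbols and rounded to whole counts. Tools were edgeR 4.0.16, DESeq2 1.42.0 and limma 3.58.1 under R 4.3.3, and Python 3.11.15. The filter filterByExpr, grouped by medium, had a minimum count of 10 and a minimum total of 15 and left 13236 genes. TMM factors scaled the libraries. The edgeR quasi-likelihood test had line and medium as terms, 2 residual degrees of freedom and 4.00 prior degrees of freedom, with Benjamini-Hochberg adjustment over all tested genes and calls at an adjusted p under 0.05. A standard error is the size of the log2 fold change divided by the square root of F. Fold changes named in the text are on the log2 scale. Ratios within a line are log2 CPM (prior count 2) in HPLM minus that in DMEM. The fits were checked on simulated counts, in which small changes were often missed. The changes were placed only in genes above a limit on the mean count. Each fitted change of a member between media was smaller than 1.5-fold, so recovery at the sizes seen was not tested. Between media 31.3% of 67 genes changed 1.5-fold, 76.1% of 67 changed 2-fold and 95.5% of 66 changed 4-fold were recovered, with 14 false calls. In HSC3 against SAS these shares were 11.9%, 73.1% and 90.9%, with 11 false calls.

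Same-numbered libraries are of the same line, so the line pairs them. Across genes, deviations from the medium's mean correlated within a line at 0.779 in HSC3, 0.792 in HSC4 and 0.805 in SAS. Nothing in the labels says that the libraries of a line came from separate cultures beyond the medium.

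Members and gene lists were chosen with earlier results of these data known. Values in every library are given for 9 members whatever their values, for the 4 largest and 4 smallest fold changes between media, for the 2 smallest p per direction in each contrast of lines, and for the 2 highest and 2 lowest by mean CPM. From each related list 2 genes were named, those of lowest p among genes averaging at least 1 CPM. CENPF, NDC80 and other members given by ratio fall outside this rule and were chosen after their values were seen. Promoters were printed for the first 6 members so named, by mean CPM, that hold both elements. Alternatives changed the scaling, the low-count filter, the test, the repeated rows, the block and the libraries used.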

Additional observations from a re-analysis of the deposited data

Results flagged for a closer look

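The 29 members that were higher in HPLM in HSC3 and lower in HPLM in HSC4 drew attention because 2 lines had opposite signs under the same change of medium. Each line had 1 library per medium, so the difference was not tested. Of single members, 4 had a log2 ratio beyond 0.3 in opposite directions in 2 lines, a limit chosen after the values were seen. CENPE had 0.46 in HSC3 and −0.52 in HSC4. CENPF had 0.335 in HSC3 and −0.533 in HSC4. NDC80 had 0.35 in HSC3 and −0.37 in HSC4. PLK1 had 0.40 in HSC3 and −0.48 in SAS, with −0.20 in HSC4. None of these differences was tested. The summed squamous markers beside them were 5494 CPM in HPLM and 6402 CPM in DMEM in HSC3, and 3048 CPM in HPLM and 3154 CPM in DMEM in HSC4, and their part in the result was not tested.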

How the results depend on the processing

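The count of 0 members called between media was the same under all scalings, filters and tests run and without each line. Few of all tested genes passed in any of these, at most 127 of 13236 in DESeq2. Without the replicate block the count was 0 and the median log2 fold change −0.04, and the block changed no call. Without HSC3, HSC4 or SAS in turn, the median ran from −0.15 to 0.07. Only the members named for the comparison of media were followed here, and fold changes of 5 of them, all uncalled, turned sign. Sign changes of the other members were not counted. CCNB1 was 0.0068 with protein-coding transcripts alone, an alternative chosen after seeing the data. Without 1 line at a time, CCNB1 ran from −0.12 (without HSC3) to 0.072 (without HSC4), CDC20 from −0.012 (without HSC3) to 0.22, HMMR from −0.0027 (without HSC3) to 0.26, TOP2A from −0.32 to 0.048 (without HSC4) and PLK1 from −0.34 to 0.10 (without SAS). The cause was not tested. Leaving out 1 library at a time gave 7 to 15 called members in HSC3 against HSC4, 2 to 6 in HSC3 against SAS and 7 to 18 in HSC4 against SAS, where 1 line keeps a lone library that is assumed to vary like the others. The medians then ran from −0.26 to 0.10, from −0.32 to 0.051 and from −0.18 to 0.069 in these contrasts. With no scaling factor the median of HSC4 against SAS was 0.070, when the all-gene median was 0.16. Over all alternatives, 27 pairs of a named gene and a contrast were followed, those between lines picked for small p. Of their values, 372 kept direction and side of the threshold, 7 changed sign, 5 lost a call and 3 gained one. Losses of the other calls between lines are not in these numbers, and few calls were kept in every alternative, as given above. With 2 residual degrees of freedom and 1 library per line and medium, changes of the size seen within a line cannot be tested.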
